A study of Arabidopsis thaliana with 4 samples.

Results

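The WRKY family of transcription factor genes was examined in maps of open chromatin from 4 natural accessions of Arabidopsis thaliana. Members were the protein-coding genes whose symbol or synonym is WRKY followed by a number, and 71 of the 27444 protein-coding genes on the 5 nuclear chromosomes met this rule. RRS1, an immune receptor gene with the synonym ATWRKY52, was left out because its name carries a prefix, and no list had a peak at its ends. The accessions Bay-0, Bur-0, Tsu-1 and Est-1 were sampled as whole seedlings after 7 days in long days (16 h light at 22°C, 8 h dark at 20°C). All carried the INTACT line UBQ10:NTF::ACT2:birA, in which nuclei receive a biotin tag and can be captured. The line is driven by widely active promoters, so the nuclei of many cell types were pooled. Captured nuclei were cut with DNase I (45 units, 3 minutes, 25°C), and small fragments with a cut at each end were sequenced. Every sample label lists Col-0 as genetic background despite the accession in its title. The series text has Tsu-0 for the accession that the samples call Tsu-1, and the sample labels were followed.

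WRKY proteins bind DNA through a domain that holds the amino acids WRKY and a zinc finger, and most recognise a short motif called the W-box. Many are switched on during immune responses, and others act in senescence, nutrient supply, trichomes, pollen or seeds. The family is divided into group I, with a pair of WRKY domains in most members, group II with the branches IIa to IIe, and group III with another form of zinc finger. The assignment to groups used here is textbook knowledge and was not read from the files.

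Only 1 library, with 1 peak list, was made per accession, so no difference between accessions could be set against replicates and p-values are not given. The lists held 25298 to 29699 nuclear peaks, nearly all of them 150 bp wide, and the sequencing depth is unknown. A gene was counted as called in an accession when a peak overlapped the stretch reaching 1000 bp beyond and 200 bp into the gene at either end. Strand was not given, so the promoter end was not told from the other end. The strength of a peak is its rank, the percentile of the authors' signal within its own list, with 100 at the top. Ranks from lists of different lengths show no change between accessions, and they are set side by side as descriptions. Intervals are 95% exact (Clopper-Pearson) intervals that cover counting error only. Green tissue genes were called throughout, with RBCS1A at rank 97.1 to 98.4, LHCB2.1 at 62.3 to 77.7 and CAB1 at 59.98 to 77.3. So were the root genes SCR, at 69.3 to 77.8, and SHR, at 57.4 to 73.4. PLT1 and COBL9, also root genes, were not called in any accession. Of 7 seed and flower genes, CRU1 and PI were called in all 4 accessions, CRU1 at ranks of 44.8 to 92.2 and PI at 92.0 to 97.4. SESA1 and AP3 were called in 2 at ranks below 10, and SESA2, SESA3 and SESA4 in none.

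Most WRKY genes had open chromatin at their ends in every accession. A peak was called in all 4 accessions at 50 of the 71 members (70.4%, 58.4 to 80.7), against 53.7% of all protein-coding genes. A further 9 members (12.7%, 5.96 to 22.7) had a call in 1 to 3 accessions, where the background is 19.5%. The remaining 12 members (16.9%, 9.05 to 27.7) had none, against 26.8% of all genes. Bur-0 had a call at 53 members (74.6%), where 59.2% of all genes were called. Bay-0 had 55 (77.5%) against 67.1%, Est-1 had 56 (78.9%) against 67.9%, and Tsu-1 had 55 against 62.5%. These counts lay within 3 genes of each other.

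The WRKY genes stand in wider spaces than most genes. The median space to the neighbouring genes, summed over both sides, was 4146 bp for members and 1855 bp for all genes. With all genes cut by this space into 5 classes of equal size, the widest class held 30 members, of which 25 were called in all 4 accessions, against 50.2% of all its genes. In the class below, 10 of 19 members were, against 57.4%. From there to the narrowest class the counts were 8 of 12 (against 56.0%), 5 of 7 (57.0%) and 2 of 3 (47.8%). The part of spacing in the overall share was not tested.

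**Figure D1:**
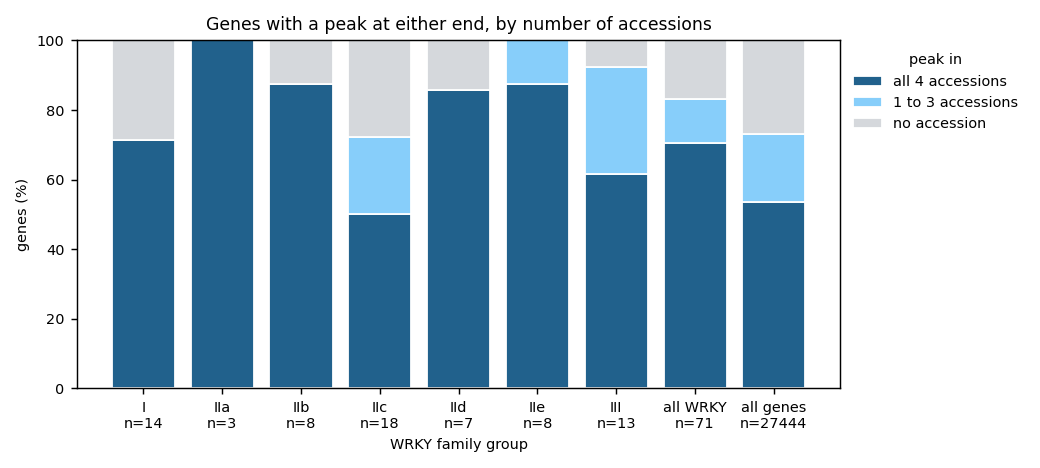
Stacked bars give the percent of genes (y axis) with a peak at either end in all 4 accessions, in 1 to 3 or in none, for each WRKY family group and for all protein-coding genes (x axis, with the number of genes). Group IIa is called throughout, group IIc reaches 50% and group III 61.5%, beside 53.7% of all genes.

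The share of members called in all 4 accessions ran from 50% to 100% over the branches of the family. Group IIa was called completely, with 3 of 3 members in all 4 accessions. Groups IIb and IIe each had 7 of 8 (87.5%, 47.3 to 99.7) and group IId 6 of 7 (85.7%, 42.1 to 99.6). Group I had 10 of 14 (71.4%, 41.9 to 91.6) and group III had 8 of 13 (61.5%, 31.6 to 86.1). Group IIc, the most numerous branch, had 9 of 18 (50%, 26.0 to 73.98). All these intervals overlap. Members called in only some accessions stood in groups IIc (4), III (4) and IIe (1), and the 12 members without a call in groups IIc (5), I (4), IIb, IId and III (1 each).

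Group IId, whose proteins carry a calmodulin-binding stretch, held the highest ranks of the branches with several called members. The lowest of the 4 ranks of a gene had a median of 91.0 over its 6 called members, with a range of 86.1 to 94.98. The same median was 64.6 over all 50 members called everywhere and 47.0 over all such protein-coding genes. WRKY7 ranked 95.2 for Bur-0, 98.0 for Bay-0, 97.0 for Est-1 and 94.98 for Tsu-1. WRKY11, which restrains basal resistance to bacteria, ranked 98.5, 91.4, 99.5 and 98.9 in the same order. Its leading region stood 642 bp beyond a gene end (chromosome 4, 15292461 to 15292690, TAIR10 as in all positions here). WRKY17, which acts together with WRKY11, had ranks of 90.6, 98.0, 97.8 and 97.3. WRKY15, known from osmotic stress and growth, ranked 92.01 in Bur-0 and 93.6 in Bay-0, with 96.4 in Est-1 and 91.8 in Tsu-1, but this peak stood nearest to the neighbour AT2G23321. WRKY21 and WRKY39 likewise owed their highest ranks to regions nearest to the neighbours AT2G30600 and CLPS3. A region nearest to WRKY39 itself ranked 74.7, 86.7, 82.9 and 83.6, and one nearest to WRKY15 ranked 80.6, 85.6, 91.5 and 90.6. The region nearest to WRKY21 that was called in all 4 accessions ranked 52.1, 74.0, 71.9 and 78.0. The median of 91.0 for this branch includes the regions nearest to neighbours. WRKY74 was the only member of this branch without a call.

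**Figure D2:**
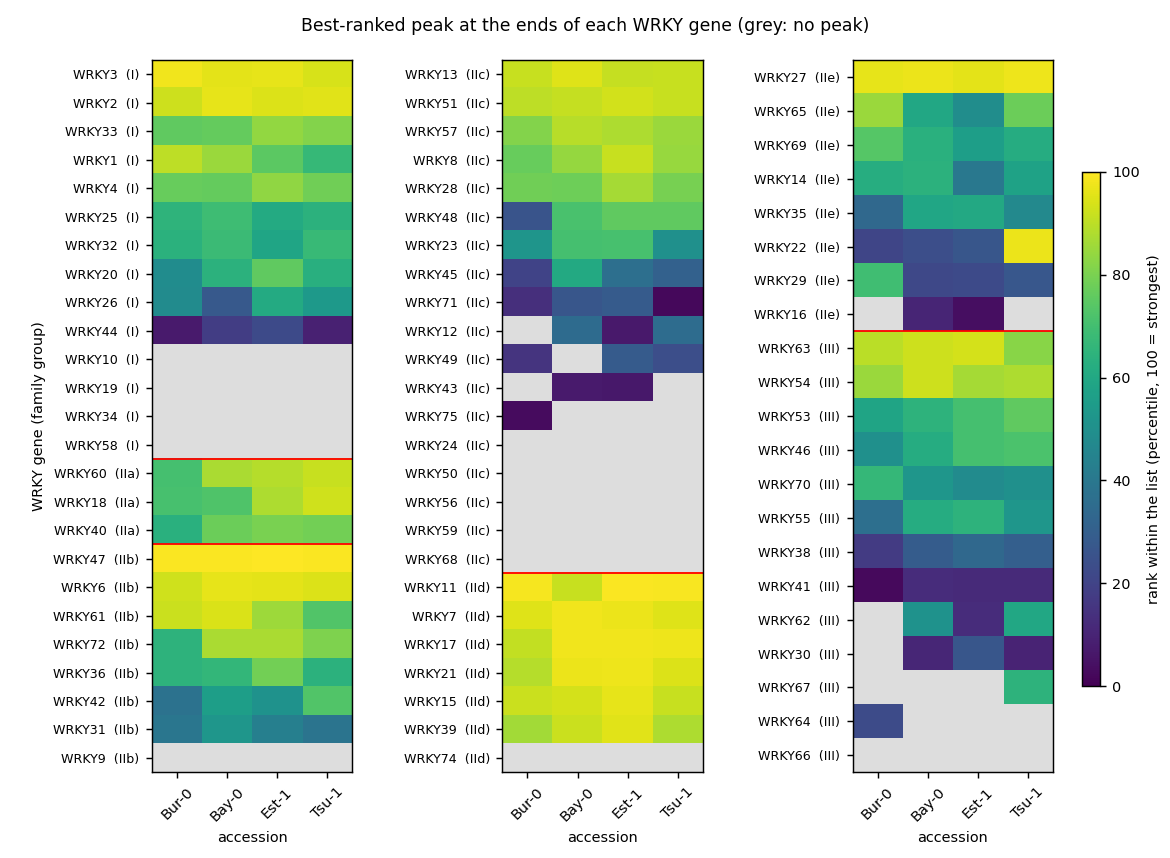
Each row is a WRKY gene with its family group, each column an accession, and colour gives the rank of the strongest peak at the gene's ends within that list (percentile, 100 at the top), with grey for no peak. Rows are sorted within a group by number of calls and mean rank. Group IId is bright except WRKY74, and grey cells gather at the foot of groups I, IIc and III.

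Among peaks that touched the counting windows, the highest rank in each list belonged to WRKY47, of group IIb. Its leading region lay 559 bp from a gene end (chromosome 4, 744141 to 744350), and the authors' signal there was 722 for Bur-0, 666 for Bay-0, 806 for Est-1 and 533 for Tsu-1. These values rank 99.5, 99.5, 99.6 and 99.6 in their lists. The span of its ranks was the smallest of the 50 members called everywhere. A region whose Bur-0 peak stood just outside the WRKY22 window, described further on, had a higher Bur-0 signal of 783. WRKY27, known for its effect on bacterial wilt, followed with 96.3, 97.2, 95.7 and 97.5. WRKY3, which acts with WRKY4 against necrotrophic fungi, ranked 98.0 in Bur-0 and 95.8 in Bay-0, with 96.4 in Est-1 and 93.9 in Tsu-1. WRKY2, which acts in the polarity of the zygote, ranked 92.4, 96.4, 94.6 and 95.5 from a single region 89 bp from a gene end. WRKY6, a regulator of senescence and a repressor of the phosphate exporter gene PHO1, ranked 92.6, 96.1, 96.1 and 94.7. It carried 5 regions, all called in every accession. Together with WRKY7, WRKY11 and WRKY15, these are the 8 members with the highest lowest rank.

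In all, 10 members (14.1%, 6.97 to 24.4) ranked 90 or above in every list, and 3.94% of all protein-coding genes did. The other 2 were WRKY13 and WRKY17, with lowest ranks of 91.1 and 90.6. WRKY15 reached 90 in every list only through a region nearest to a neighbour. The count over all genes includes such regions too. Among genes with a call, the median rank of members was 69.2 for Bur-0, 70.7 for Bay-0, 75.2 for Est-1 and 75.4 for Tsu-1. The medians over all called protein-coding genes were 52.5, 54.3, 53.6 and 53.1. A gene takes its highest-ranked peak, and genes with a peak somewhere held a mean of 2.22 regions among members and 1.93 among all genes. The part of this in the ranks was not tested. Members reached from 2.37 to 99.5 within Bur-0 and from 2.31 to 99.6 within Tsu-1, so weak sites occurred in the family too.

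**Figure D3:**
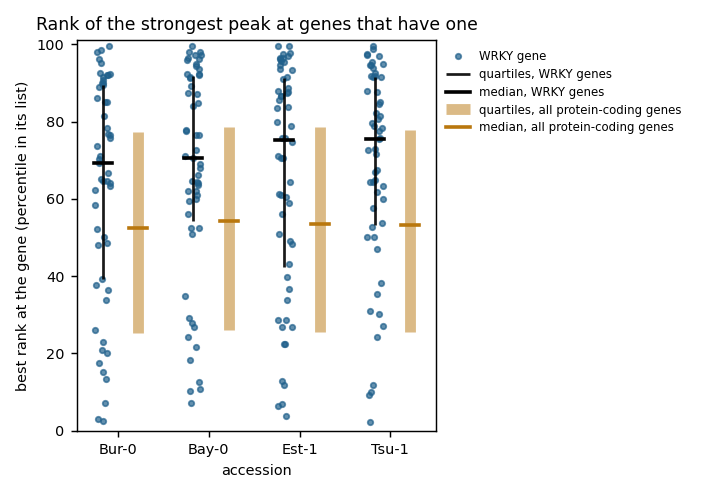
Points are WRKY genes with a peak, by accession (x axis) and by the rank of their strongest peak within that list (y axis, percentile). Black lines give the median and quartiles of these genes, and brown bars and lines those of all protein-coding genes with a peak. WRKY medians lie between 69.2 and 75.4, and those of all genes between 52.5 and 54.3.

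Of 16 well-studied members, taken from a list that spans immunity, senescence, nutrition and development, 14 (87.5%, 61.7 to 98.4) were called in all 4 accessions, against 53.7% of all genes. The list was chosen with earlier results known. Its 2 other members were WRKY75 and WRKY10, and WRKY2 and WRKY6, described above, ranked 90 or above in every list. WRKY33, needed for resistance to necrotrophic fungi and for camalexin synthesis, had a signal of 204 in Bur-0 and 251 in Bay-0, with 342 in Est-1 and 203 in Tsu-1. Its ranks were 75.6, 76.5, 83.8 and 81.3, from a region across one end of the gene (chromosome 2, 16108041 to 16108290). A peak 420 bp beyond that end was called in Tsu-1 only, at rank 27.0, and the own peaks of the other lists stood 150 to 250 bp away. The group IIa genes, related repressors in immunity and abscisic acid responses, ranked lowest in Bur-0 in all 3 cases. Over all genes called everywhere, Bur-0 was lowest at 45.1%. WRKY18 had 71.0 for Bur-0, 72.5 for Bay-0, 87.5 for Est-1 and 92.7 for Tsu-1. WRKY40 had 63.3, 77.4, 79.98 and 78.9, with a pair of regions 46 and 756 bp from one end. WRKY60 had 70.4, 87.2, 88.7 and 91.8. When the lists were shortened to their 25298 strongest peaks, Bay-0 in place of Bur-0 was lowest for WRKY18, at 68.7 against 71.0.

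The list holds 4 genes of group III, a group with 8 of 13 members called in all 4 accessions, and a further gene of group I, WRKY25. WRKY70 and WRKY54 are related regulators of salicylic acid responses that delay senescence. WRKY70 ranked 66.7 in Bur-0 and 52.4 in Bay-0, with 48.4 in Est-1 and 50.1 in Tsu-1, and had 3 regions, all in every list. WRKY54 ranked higher, at 84.97, 92.4, 86.5 and 87.7. WRKY53, a promoter of senescence, had 1 region 224 bp beyond a gene end with ranks of 58.4, 64.7, 70.5 and 75.4. WRKY46, which acts with WRKY54 and WRKY70 in drought and growth, ranked 50.1 for Bur-0, 62.1 for Bay-0, 70.7 for Est-1 and 71.6 for Tsu-1. WRKY25, known from heat and salt responses, ranked 65.1, 68.9, 61.3 and 64.4. Its only region stood nearest to the neighbour U2B'', so WRKY25 had no call when a peak had to be nearest to the member itself.

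The lowest ranks on the list, and its missing calls, fell at 3 genes. WRKY44, also named TTG2, acts in trichomes and seed coats and ranked 7.24 in Bur-0 and 18.3 in Bay-0, with 22.3 in Est-1 and 9.14 in Tsu-1, with signals of 68, 89, 104 and 51. WRKY75, which responds to phosphate starvation, was called in Bur-0 only, at rank 2.96. WRKY10, also named MINI3, controls endosperm growth and seed size and had no call in any list. These are open-chromatin calls over whole seedlings, and a site open in few cells and one weakly open in many cannot be told apart.

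WRKY22 and WRKY29, which act downstream of the flagellin receptor FLS2, were called in every accession but with uneven ranks. WRKY22 ranked 20.9 for Bur-0, 24.2 for Bay-0, 26.8 for Est-1 and 97.0 for Tsu-1, the widest span of any member. A strong region called in all 4 accessions stood at the outer edge of its window (chromosome 4, 525141 to 525550). The stronger Tsu-1 peak there began 892 bp past the gene end and was counted. The peaks of the other lists began 1012 to 1032 bp past it and were not, although they ranked 99.6 in Bur-0, 99.5 in Bay-0 and 98.2 in Est-1. Tsu-1 also had a peak at 525401 to 525550 (rank 79.5). The Bur-0 and Bay-0 peaks (525281 to 525430) overlapped each Tsu-1 peak only in part. Read by the joined region, WRKY22 ranked 97.0 or above in all 4 accessions. The wide span arose because only a Tsu-1 peak touched the window there. WRKY29 had 2 regions, each called in 3 lists. One, not called in Est-1, had ranks of 69.2, 7.66 and 27.0 in the other 3 lists, and the other ranked 38.5 in Bur-0, 21.6 in Bay-0 and 22.3 in Est-1. It was the only 1 of the 50 members called everywhere that had no region in all 4 lists.

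**Figure D4:**
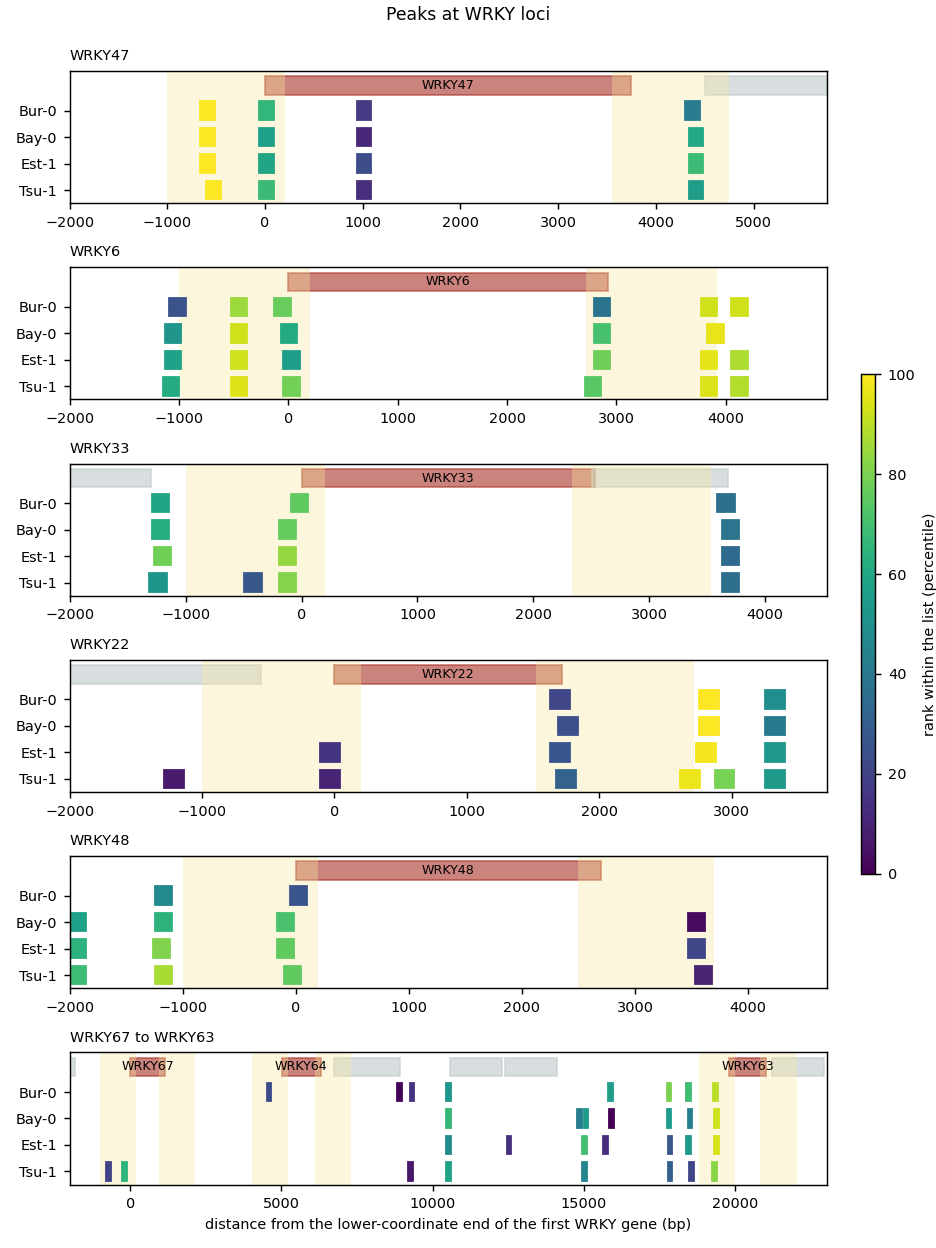
Coloured blocks are peaks of each accession at 6 WRKY loci, by distance in bp from the lower-coordinate end of the first WRKY gene, with colour for rank within the list. Red boxes are WRKY genes, grey boxes other protein-coding genes, and yellow the windows in which peaks were counted. At WRKY22 the strong Tsu-1 peak touches the window while those of the other lists, at ranks of 98.2 to 99.6, begin just outside it.

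Ranks lay 30 or more points apart at 7 of the 50 members called everywhere (14.0%, 5.82 to 26.7), against 19.1% of all genes called everywhere. Besides WRKY22 and WRKY29 these were WRKY48, WRKY45, WRKY65, WRKY42 and WRKY26. WRKY48, a negative regulator of basal resistance, had a signal of 93 in Bur-0 and 225 in Bay-0, with 280 in Est-1 and 177 in Tsu-1. Its ranks were 26.1, 71.1, 75.7 and 75.7, from a single joined region across one gene end (chromosome 5, 20090481 to 20090750). Bur-0 was low and the others lay within 5 points. The peaks were shifted, at 20090601 to 20090750 in Bur-0 and 20090481 to 20090630 in Bay-0 and Est-1, and overlapped only in part. Bur-0 also had no call at the other WRKY48 region, which ranked 3.05 (Bay-0), 21.5 (Est-1) and 10.1 (Tsu-1). WRKY45, which raises phosphate uptake, ranked 20.1 for Bur-0, 60.9 for Bay-0, 36.6 for Est-1 and 31.0 for Tsu-1. WRKY42, another regulator of phosphate transport and PHO1, ranked 37.8, 56.0, 50.9 and 72.9. WRKY65 went the other way, at 84.97 in Bur-0 and 59.98 in Bay-0, with 49.1 in Est-1 and 77.5 in Tsu-1. WRKY26, a heat-response gene, ranked 48.1, 27.8, 61.0 and 53.6, from a region nearest to AT5G07090. Bur-0 had the lowest rank at 26 of the 50 members, and at 45.1% of all genes called everywhere.

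Among the 9 members called in some accessions, Bur-0 lacked the call at 6, Bay-0 and Tsu-1 at 4 each and Est-1 at 3. Among all genes called in 1 to 3 accessions, 71.7% lacked the Bur-0 call, 55.1% Tsu-1, 31.5% Bay-0 and 27.3% Est-1, so a missing Bur-0 call was the most frequent over all genes too. Exactly 3 accessions had a call at 4 members (5.63%), where the background is 8.44%. WRKY62, a negative regulator of basal defence, had no Bur-0 call and ranked 50.9 (Bay-0), 12.9 (Est-1) and 60.1 (Tsu-1). WRKY30, a stress-induced gene of group III, had no Bur-0 call either and ranked 10.8, 26.8 and 10.1. At these genes the closest Bur-0 peaks lay 2750 and 5430 bp from the regions. WRKY12, which acts in pith cell walls and flowering, was called in Bay-0 at 34.8, in Est-1 at 6.99 and in Tsu-1 at 35.5. WRKY49 lacked a Bay-0 call and ranked 15.1 (Bur-0), 28.6 (Est-1) and 24.2 (Tsu-1).

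Calls in 2 accessions were found at 2 members (2.82%, background 5.47%) and calls in 1 accession at 3 members (4.23%, background 5.63%). WRKY43 and WRKY16 were called in Bay-0 and Est-1. WRKY43 ranked 7.06 and 6.45, from a region nearest to the neighbour AT2G46140. WRKY16, which fuses an immune receptor to a WRKY domain, ranked 10.2 and 3.79. These were the 2 longest lists, and both genes lost all calls when the lists were held to equal length. WRKY75 and WRKY64 were called in Bur-0 only, WRKY64 at rank 23.0. WRKY67 was called in Tsu-1 only, with 2 regions at ranks of 64.8 and 19.9. Of these 9 members, 7 had no rank of 50 or above, WRKY62 and WRKY67 being the others. The matching share over all genes called in 1 to 3 accessions was not computed.

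WRKY67, WRKY64 and WRKY63 stand near each other on chromosome 1, and the peak lists differed at the first pair. The Tsu-1 peaks at WRKY67 (24828241 to 24828390 for the stronger) had no peak of another list within 4630 bp. The Bur-0 peak at WRKY64 (24833021 to 24833170) had none of the other lists within 4530 bp. WRKY63, also named ABO3 and known from abscisic acid and drought responses, was called everywhere, at 89.6 for Bur-0, 92.4 for Bay-0, 93.7 for Est-1 and 82.1 for Tsu-1. Reads were aligned to the TAIR10 reference. How similar these neighbouring genes are, and how reads of other accessions align there, was not tested.

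The 12 members without a call had no peak over the gene either. They were WRKY10, WRKY19, WRKY34 and WRKY58 of group I, WRKY9 of group IIb, WRKY24, WRKY50, WRKY56, WRKY59 and WRKY68 of group IIc, WRKY74 of group IId and WRKY66 of group III. WRKY34 is known from pollen, WRKY19 fuses immune receptor and kinase parts, and WRKY50 acts with WRKY51 in the crosstalk of salicylic acid and jasmonate. WRKY9 came closest to a call, with the nearest peaks 1018 bp away in Bur-0 and 1098 bp in the other lists. At WRKY68 the nearest peak was 3518 bp away in all 4 lists. At WRKY74 it was 3168 bp away in Bay-0 and 17608 bp in Bur-0. WRKY51 stood apart from its partner WRKY50, with ranks of 89.9, 91.3, 93.2 and 91.6.

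Counted by region, the WRKY genes held 130 regions, of which 89 (68.5%, 59.7 to 76.3) were called in all 4 accessions. At all gene ends this share was 55.6%. Intervals for regions treat them as independent, although many stand at the same gene. A further 17 regions were called in 3 accessions (13.1%, background 15.5%), 12 in 2 (9.23%, background 12.4%) and 12 in 1 (9.23%, background 16.5%). Of the 17 regions that 1 accession lacked, 8 lacked a Bur-0 call, 4 Bay-0, 3 Tsu-1 and 2 Est-1. Over all gene ends, the missing call was that of Bur-0 at 54.2% of such regions, Tsu-1 at 21.8%, Est-1 at 12.8% and Bay-0 at 11.3%. The accession without the call had a peak of its own within 300 bp at 5 of the 17. The matching share over all gene ends was not computed. At WRKY61 the missing Tsu-1 call lay 30 bp from a Tsu-1 peak, beside a region that ranked 91.9 in Bur-0, 94.5 in Bay-0 and 85.5 in Est-1. At 22 members (31.0%) there were 3 or more regions, and 18.1% of all genes had as many. WRKY6, WRKY13 and WRKY28 had 5 regions each, all in every list at WRKY6 and 2 of 5 at the others.

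WRKY peaks reached farther from the genes than peaks at all genes. Midpoints outside a member stood at a median of 420 to 457 bp from its nearest end, depending on the accession, against 313.5 to 323.5 bp over all genes. Within 400 bp of an end lay 51.5% of the WRKY peaks for Bur-0, 55.9% for Bay-0, 57.3% for Est-1 and 52.2% for Tsu-1, and 63.3 to 64.3% of peaks over all genes. In these distances and shares, a peak in the windows of several genes of a set was counted once for each gene. Of the 130 regions, 32 also fell in the window of another gene and 111 (85.4%) were nearest to an end of a WRKY gene. These shares were not computed over all genes. Counting only peaks nearest to the member left 45 members called in all 4 accessions (63.4%), and 39.4% of all genes. Inside the genes, away from their ends, 11 of the 71 WRKY members (15.5%, 8.00 to 26.0) held 14 regions, where 7.95% of all protein-coding genes held any. Of these regions 9 were called in all 4 accessions (64.3%, 35.1 to 87.2), against 47.1% of such regions over all genes.

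Most genes on a list of pathways around WRKY proteins, from upstream kinases and receptors to partners and targets, were called too. Of 30 such genes, 22 (73.3%, 54.1 to 87.7) were called in all 4 accessions, against the background of 53.7%, with 4 called in some lists and 4 in no list. Among upstream MAP kinases, 7 of 8 were called everywhere, with MPK6 at ranks of 73.4, 71.4, 63.4 and 62.5, and MPK4 in none. The partners MKS1, SIB1 and SIB2, which bind WRKY proteins through a VQ motif, were called in all 4. Receptors and their partners had 4 of 5, with FLS2 at 76.7 to 88.8 and EFR, the receptor for bacterial EF-Tu, in Est-1 and Tsu-1 only (33.9 and 30.3). The salicylic acid branch had 7 of 8, including ICS1 and NPR1, while PR1, a defence marker gene, was called in Est-1 (23.2) and Tsu-1 (20.6). The camalexin genes PAD3, CYP71A12 and CYP71A13, the first a known WRKY33 target, had no call in any list. Of 3 phosphate and senescence targets, the phosphate transporter gene PHT1;1 was called in all 4, with ranks of 69.5, 60.9, 52.6 and 36.2. PHO1 was called in Bur-0 only, at 3.55. SAG12, a senescence marker, lacked an Est-1 call and ranked 18.1 (Bur-0), 40.02 (Bay-0) and 34.0 (Tsu-1).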

How the data were processed

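DNase I-seq peak lists of 4 accessions were used, 1 library and 1 list per accession, grouped by the source label. The submitters' processing notes name Bowtie 0.12.7 and TAIR10. Which peak caller and filters were used, and how deep each library was sequenced, is not stated there. The authors deposited a signal (an integer for every peak, scaling not stated). It was turned into a percentile within each list of nuclear peaks. The deposited −log10 p broke ties where lists were shortened.

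Members and windows came from a RefSeq gene table (TAIR10.1) without strand or sequence, so the planned count of W-box motifs was not run. Shifting peaks against gene ends in steps of 50 bp, up to 2000 bp, placed the best fit at no more than 100 bp on all 5 chromosomes. Peaks that touched or overlapped, within or between lists, were joined into regions. Python 3.11.15 with pandas 2.3.3 and scipy 1.17.1 was used, and the counting was tested on simulated data.

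Members, gene lists and the rule for naming genes were chosen with earlier results of these data known. By that rule, ranks in all 4 lists are given for the 8 members with the highest lowest rank, those called in 1 to 3 accessions, those with ranks 30 or more points apart, and a fixed set of well-studied members. With 1 library per accession no test was possible.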

Additional observations from a re-analysis of the deposited data

How the results depend on the processing

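No paired analysis was possible because each accession has 1 library and the results come from no test. Of 93 values under an alternative, 86 stayed within 1.5 times the reported count, inside the exact interval of a share or inside a 95% order-statistic interval of a median over members, and 7 moved. The alternatives were narrower and wider windows, equally long lists, the stronger 50% of each list, other overlap rules, RRS1 as a member (13 without a call of 72 genes), leaving out each accession, and ranks of whole regions that touch the window, the last 3 chosen after seeing the data. Some of the 86 values could not have moved. The count called throughout cannot fall when an accession is left out or RRS1 is added. It also cannot rise to 1.5 times, for lack of members. Bur-0 has the shortest list, so its values under equally long lists are fixed. The tally is therefore no measure of stability. The number of members without a call, 12 as reported, depended on the window. It was 18 with the narrower windows, 8 with the wider and 16 with only peaks nearest to the gene itself. These counts were scored as unmoved. With the stronger 50% of each list, 32 members were called in all 4 accessions (45.1%, against 25.4% of all genes), 16 in some and 23 in none, 11 listed defence genes were called in all 4, and the share of regions in all 4 was 58.6%. Where peaks had to overlap by 50% of both, that share was 41.6%. Without Bur-0, 4 members were called in some accessions only. The alternatives under which values moved keep fewer peaks, join fewer of them or use fewer lists. The share of WRKY genes in all 4 was above that of all genes in each of the 6 alternatives where both were counted. The W-box alternative was not run for lack of sequence.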

Other observations

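Regions inside WRKY genes, away from their ends, occurred at group IId genes among others. WRKY11, a negative regulator of basal resistance, had a pair, the stronger (chromosome 4, 15290101 to 15290290) at ranks of 82.5 for Bur-0, 80.5 for Bay-0, 87.3 for Est-1 and 67.7 for Tsu-1. WRKY7 had one at 88.7, 83.7, 89.0 and 82.9. WRKY41, known from seed dormancy, ranked 2.37 to 12.7 at its ends but had a region inside the gene (chromosome 4, 6760281 to 6760470) at 20.9 in Bur-0 and 76.5 in Bay-0, with 44.3 in Est-1 and 21.3 in Tsu-1. WRKY18 had an inside region in Tsu-1 only, at rank 39.0.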
